A study of Mus musculus with 12 samples.

Results

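This section describes 10 genes of the bone morphogenetic protein (BMP) pathway in mouse hippocampal cultures in which the lncRNA *Neuid* (Gm10419) was knocked down (KD). The genes were taken by symbol: the 4 inhibitor of DNA binding genes (*Id1*, *Id2*, *Id3*, *Id4*), the Smad genes *Smad1*, *Smad5* and *Smad9*, and the receptor genes *Bmpr1a*, *Bmpr1b* and *Bmpr2*. All 10 were found among the 55471 genes of the count table, and all 10 passed the filter on low counts, which kept 19578 genes for testing. Both groups held wild-type (WT) primary hippocampal neurons from embryos of CD1 mice, grown in Neurobasal medium with B27. One group received an antisense LNA gapmer against *Neuid* and the other a negative control gapmer, each packaged in lipid nanoparticles. The gapmers were added at DIV 7 (days in vitro) and RNA was isolated at DIV 10, with 6 libraries per group. The sources used here do not say whether the libraries of a group came from separate cultures, so the p-values measure the spread between these libraries, which may be technical.

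BMP ligands bind a complex of type I receptors (*Bmpr1a*, *Bmpr1b*) and type II receptors (*Bmpr2*). The type I receptor then phosphorylates Smad1, Smad5 and Smad9 (also called Smad8), which join Smad4 and enter the nucleus. The Id genes are the best known direct targets of these complexes. Id proteins have a helix-loop-helix domain but no DNA-binding region, so they pair with E proteins and keep them from binding DNA with neural bHLH factors. In the developing brain the pathway is known for favouring astrocytes over neurons and oligodendrocytes.

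Total counts were between 18002585 and 30914714 in control libraries (median 22173562) and between 11152556 and 30573480 in *Neuid* KD libraries, of which replicate 1 was the shallowest. *Neuid* itself lay at 28.4 ± 2.03 CPM (counts scaled to a common library size with TMM factors) in control and at 8.05 ± 1.13 CPM in *Neuid* KD (SD, n = 6 each; log2 fold change -1.81, standard error (SE) 0.0845). Neuron markers such as *Map2* (2625 CPM in control) were abundant, and markers of other cells were present too. The summed level of 11 astrocyte markers was between 1817 and 2291 CPM in control and between 3576 and 4273 CPM in *Neuid* KD, and all 11 rose without overlap between the groups. For 7 markers of oligodendrocyte precursors the sums were 100.5 to 121 CPM and 253 to 297 CPM, and 3 of the 7 rose. In 2 of the 7 the groups did not overlap, DESeq2 called 2 higher and 0 lower, and log2 fold changes were -0.77 to 1.67. Of 7 markers of myelinating oligodendrocytes 4 were tested, and 0 rose and 1 fell with edgeR and with DESeq2. The 7 summed to 26.3 to 33.4 CPM in control and 22.8 to 33.7 CPM in *Neuid* KD. The 11 neuron markers summed to 6159 to 7241 CPM and 6121 to 7269 CPM, and 1 of them, *Nefm*, rose (log2 fold change 0.21). Of 8 microglia markers 6 averaged under 1 CPM, *P2ry12*, *C1qa* and *Tmem119* among them, and the 8 summed to 6.57 to 11.8 CPM in control and 5.80 to 11.5 CPM in *Neuid* KD. Of 8 endothelial markers 5 averaged under 1 CPM, *Cldn5* among them, with sums of 6.62 to 25.3 and 6.97 to 23.9 CPM. The 9 markers of fibroblasts and mural cells, of which 1 averaged under 1 CPM, summed to 40.01 to 72.3 and 37.6 to 61.0 CPM. Enough reads to be tested were found for 3 of the 8 microglia markers, 5 of the 8 endothelial markers and all 9 of the last list. None of these 3 lists held a called gene (edgeR; 0 at an unadjusted p under 0.05 and 0 with DESeq2). Among all tested genes, edgeR called 6.31% higher and 2.42% lower (adjusted p under 0.05). In bulk RNA, more cells of a type and more RNA per cell cannot be told apart.

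A BMP-responsive promoter can carry the palindrome GGCGCC, which Smad1 and Smad5 bind. The RefSeq promoter table (GRCm38.p6, from 250 bases before to 50 bases after each start site) held windows for 9 of the 10 genes, all but *Id1*. Windows of 3 Id genes, 1 for each gene, are shown here because the ratios of *Id3* to *Id2* and to *Id4* differed between the groups, as described further on. They are written 5′ to 3′ on the gene's strand, and capitals mark GGCGCC.
Id2, chr12:25096043-25096342, minus strand: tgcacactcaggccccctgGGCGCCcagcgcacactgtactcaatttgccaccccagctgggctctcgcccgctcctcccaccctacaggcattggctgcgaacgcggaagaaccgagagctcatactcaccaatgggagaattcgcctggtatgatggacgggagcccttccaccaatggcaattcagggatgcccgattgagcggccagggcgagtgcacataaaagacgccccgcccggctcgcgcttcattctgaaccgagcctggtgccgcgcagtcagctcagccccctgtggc
Id3, chr4:136143572-136143871, plus strand: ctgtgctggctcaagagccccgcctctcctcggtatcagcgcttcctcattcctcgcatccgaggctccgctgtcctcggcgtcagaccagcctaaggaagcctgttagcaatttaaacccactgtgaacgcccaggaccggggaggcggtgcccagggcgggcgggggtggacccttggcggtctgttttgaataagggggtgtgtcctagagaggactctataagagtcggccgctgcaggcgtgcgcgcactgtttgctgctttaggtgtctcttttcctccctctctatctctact
Id4, chr13:48260866-48261165, plus strand: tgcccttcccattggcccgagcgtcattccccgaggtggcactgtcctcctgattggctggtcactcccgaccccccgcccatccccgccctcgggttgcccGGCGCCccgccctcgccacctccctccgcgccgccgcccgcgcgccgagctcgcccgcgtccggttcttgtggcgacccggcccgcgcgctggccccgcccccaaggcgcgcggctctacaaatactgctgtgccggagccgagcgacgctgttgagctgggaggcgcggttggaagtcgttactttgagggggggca
The palindrome, which reads the same on both strands, stood at -231 from the start site in *Id2* and at -148 in *Id4*, and it was absent from the *Id3* window. It also occurred in windows of *Smad5*, *Smad9*, *Bmpr1a* and *Bmpr2*. It was absent from the windows of *Smad1* and *Bmpr1b* and from a further window of *Smad5*. In all, 11.9% of the 32851 promoters in the table hold it. The palindrome consists of G and C only, and the median GC content of all promoters was 52.7%. Windows of these genes that hold it had 59.3% to 79.3% GC, and those without it 48.3% to 68.0%. Whether it is more frequent here than GC content gives was not tested. The motif list was shortened after the windows had been searched, so presence and absence are given as a description only. Whether the palindrome bears on the changes of these genes was not tested. The palindrome GTCTAGAC, another sequence known to bind Smads, was searched too, is held by 0.213% of all promoters and was in no window of the 9 genes. The *Id4* window lies upstream of the gene's start in the GENCODE annotation used for the counts here. The *Id2* and *Id3* windows lie inside the bounds of their genes in that annotation, so positions here refer to RefSeq start sites only.

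Of the 10 genes, 5 rose in *Neuid* KD and none fell (edgeR's quasi-likelihood test, adjusted p under 0.05 over all tested genes). They were *Id2*, *Id3*, *Smad5*, *Bmpr1a* and *Bmpr1b*. Among all tested genes, 8.72% were called, 6.31% rose and 2.42% fell, so that 72.3% of the calls were higher, and with upper-quartile factors 45.5% were. With the fold-change threshold of the study (absolute log2 fold change above 0.5), *Id3*, *Smad5* and *Bmpr1b* remained, where 2.44% of all tested genes rose. In the same 5 genes every *Neuid* KD library lay above every control library, as in 4.13% of all tested genes. The median log2 fold change was 0.37 over the 10 genes and -0.03 over all tested genes. The 10 genes were chosen with earlier results of these data known, so their shares beside those of all tested genes are a description only. At an unadjusted p under 0.05, 7 of the 10 were higher and 0 were lower, and DESeq2 called 6 higher and 0 lower.

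**Figure D1:**
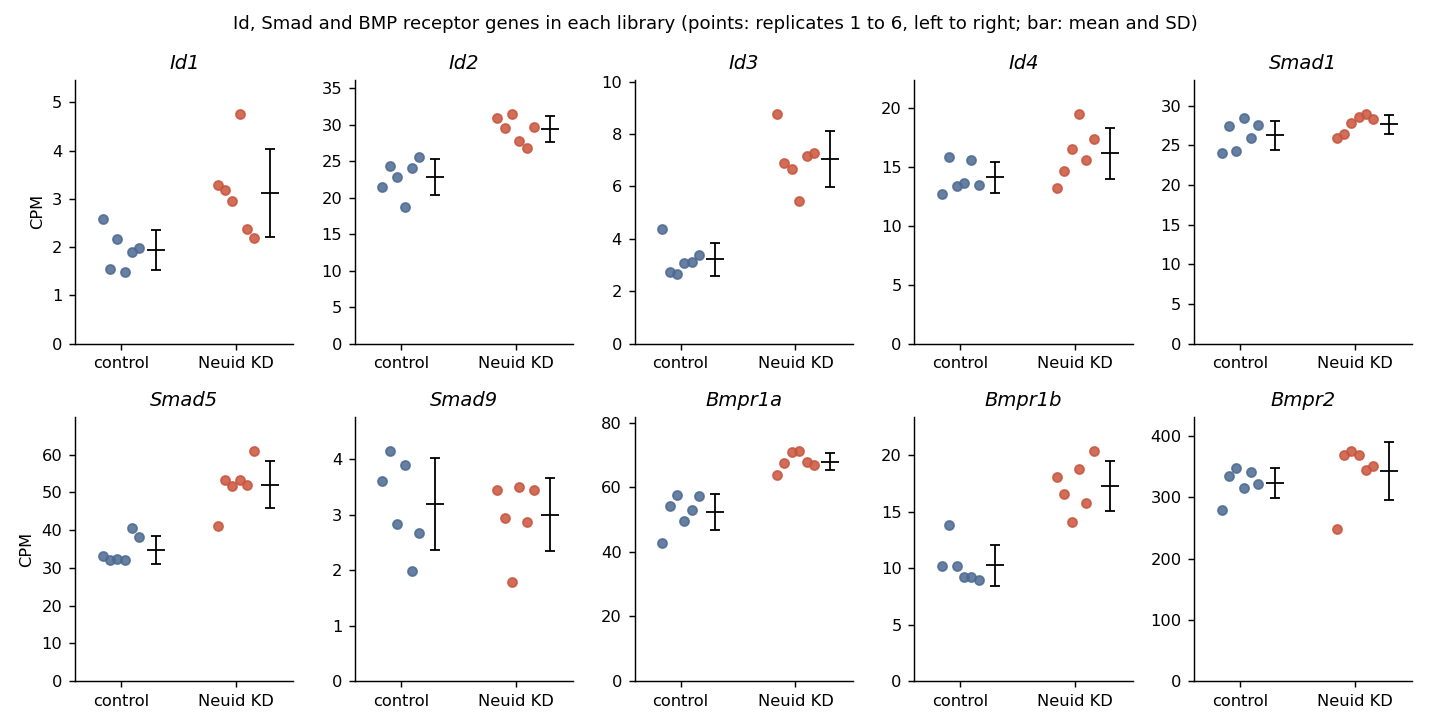
Level of each of the 10 genes in CPM (vertical axes, from 0) in the 6 control and 6 Neuid KD libraries, with points for replicates 1 to 6 and a bar for the mean and SD. The groups are apart for Id2, Id3, Smad5, Bmpr1a and Bmpr1b and overlap for the other 5 genes.

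Scaled to exon length, the order of the levels in control was led by *Bmpr2* at 18.0 ± 1.36 CPM per kb (SD, n = 6 here and for the following levels). *Id2* (9.37 ± 1.01 CPM per kb) and *Bmpr1a* (8.25 ± 0.887 CPM per kb) came next, and their ranges over the control libraries overlapped. *Smad5* (4.68 ± 0.498), *Smad1* (4.19 ± 0.291) and *Id4* (3.66 ± 0.332 CPM per kb) followed, each overlapping its neighbour in this order. A lower set held *Id3* (1.80 ± 0.351), *Bmpr1b* (1.72 ± 0.306) and *Id1* (1.67 ± 0.353 CPM per kb), again with overlap between neighbours. *Smad9* was lowest, at 0.594 ± 0.154 CPM per kb. In *Neuid* KD, *Id3* reached 3.93 ± 0.597 CPM per kb and *Id4* stood at 4.19 ± 0.567 CPM per kb, while *Smad9* was again the lowest (0.559 ± 0.123 CPM per kb).

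Among the Id genes, *Id3* had the highest log2 fold change of the 10 genes. It is on chromosome 4 (136143497 to 136145755, plus strand, GRCm38; ENSMUSG00000007872). Its level in control was 2.67 CPM at the lowest, 3.08 at the median and 4.39 at the highest, and in *Neuid* KD it was 5.46, 7.04 and 8.76 CPM. Every *Neuid* KD library therefore lay above every control library, although replicate 1 was the highest library of its group on both sides. The mean rose from 3.22 ± 0.628 to 7.04 ± 1.07 CPM (SD, n = 6 each), a log2 fold change of 1.12 with an SE of 0.140 (edgeR's quasi-likelihood test as above, adjusted p = 2.5e-05). Between 64 and 178 reads per library stood behind these values.

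*Id2* is the most abundant Id gene per kb in these cultures and is on chromosome 12 (25093799 to 25097140, minus strand). It lay at 18.7, 23.5 and 25.6 CPM (lowest, median and highest library) in control and at 26.8, 29.6 and 31.4 CPM in *Neuid* KD. The groups did not overlap, but the gap between the highest control and the lowest *Neuid* KD library was small. The log2 fold change was 0.36 (SE 0.0695, adjusted p = 0.00237).

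*Id1* is on chromosome 2 (152736251 to 152737410, plus strand) and was counted with 32 to 136 reads per library. Its level was 1.48, 1.94 and 2.58 CPM in control and 2.20, 3.06 and 4.76 CPM in *Neuid* KD. In *Neuid* KD, 4 of 6 libraries were above the highest control library and the other two were within the control range, with replicate 4 the highest. The log2 fold change of 0.69 had a wide interval (95% interval 0.26 to 1.11) and did not pass the threshold (SE 0.218, adjusted p = 0.0631). The two-sided exact permutation test for *Id1* alone gave p = 0.00866, unadjusted, where the smallest p that 6 libraries against 6 can give is 0.002165. *Id1* passed the threshold in 6 of 23 alternative fits, among them DESeq2 (adjusted p = 0.0397), and its adjusted p over all of them was between 0.0161 and 0.79.

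*Id4*, which is known to act partly against the other Id proteins, is on chromosome 13 (48261228 to 48266026, plus strand). Its level was 12.7, 13.5 and 15.8 CPM in control and 13.2, 16.0 and 19.4 CPM in *Neuid* KD. The groups overlapped, with 3 of 6 *Neuid* KD libraries above the highest control library. The log2 fold change was 0.20 (95% interval 0.04 to 0.37, adjusted p = 0.193). For *Id4* alone the two-sided exact permutation test gave p = 0.0801, unadjusted. On the opposite strand *Id4* shares 82 exon bases with A330033J07Rik and 171 with Gm49291, which had 54 and 16 reads over all libraries.

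Of the 3 receptor-regulated Smad genes, only *Smad5* passed the test. *Smad5* is on chromosome 13 (56703010 to 56742377, plus strand). It lay at 32.0, 32.8 and 40.6 CPM in control and at 41.2, 52.6 and 60.9 CPM in *Neuid* KD. The lowest *Neuid* KD library, replicate 1, was just above the highest control library, and the other five stood well apart. The mean rose from 34.7 ± 3.69 to 52.1 ± 6.32 CPM (SD, n = 6 each), a log2 fold change of 0.59 (SE 0.0818, adjusted p = 8.4e-05).

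*Smad1* (chromosome 8, 79338395 to 79399518, minus strand) lay at 24.0, 26.6 and 28.4 CPM in control and at 25.9, 28.0 and 28.9 CPM in *Neuid* KD. The groups overlapped over most of their range, and the log2 fold change was 0.08 (95% interval -0.03 to 0.18, adjusted p = 0.542). *Smad9* (chromosome 3, 54755582 to 54801257, plus strand) was the least abundant of the 10 genes per kb, with 38 to 100 reads per library. It lay at 1.99, 3.22 and 4.14 CPM in control and at 1.78, 3.20 and 3.50 CPM in *Neuid* KD, so that the *Neuid* KD libraries fell within the control range except replicate 3, which was below it. Its log2 fold change of -0.09 had an interval from -0.50 to 0.32 (adjusted p = 0.888), the widest among the 3 Smad genes. The direction for *Smad9* was not stable: the log2 fold change was 0.02 without *Neuid* KD replicate 3 and 0.15 in the libraries with low background.

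Of the 3 receptor genes among the 10, the type I genes *Bmpr1a* and *Bmpr1b* rose and the type II gene *Bmpr2* did not pass the test. *Bmpr1b* is on chromosome 3 (141837136 to 142169425, minus strand). It was at 9.00, 9.71 and 13.8 CPM in control and at 14.1, 17.3 and 20.4 CPM in *Neuid* KD. Control replicate 2 was far above the other control libraries and still below every *Neuid* KD library. The mean rose from 10.3 ± 1.83 to 17.3 ± 2.24 CPM (SD, n = 6 each), a log2 fold change of 0.75 (SE 0.108, adjusted p = 0.00013).

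*Bmpr1a* (chromosome 14, 34410734 to 34503341, minus strand) was at 42.6, 53.5 and 57.7 CPM in control and at 63.9, 67.7 and 71.1 CPM in *Neuid* KD. The *Neuid* KD libraries lay close together and above all control libraries, of which replicate 1 was the lowest. The log2 fold change was 0.38 (SE 0.0649, adjusted p = 0.00078). *Bmpr2* (chromosome 1, 59763400 to 59879014, plus strand), the most abundant of the 10 genes, was at 280 to 349 CPM in control (median 328) and at 248 to 375 CPM in *Neuid* KD (median 360). Here the *Neuid* KD group held both the lowest library, replicate 1, and the 4 highest of the 12. The log2 fold change was 0.08 (95% interval -0.08 to 0.25, adjusted p = 0.727).

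**Figure D2:**
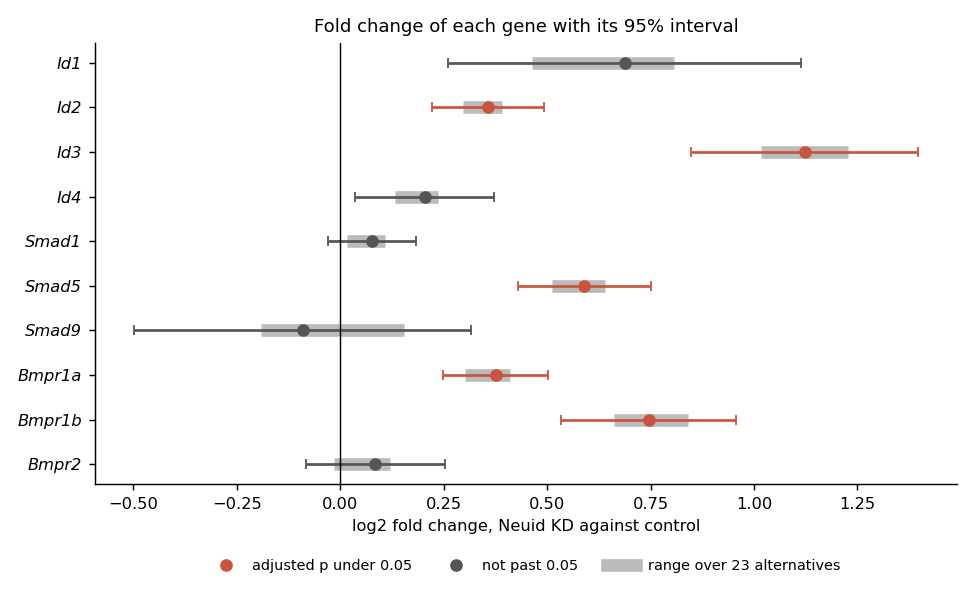
Log2 fold change of each gene between Neuid KD and control (horizontal axis) with its 95% interval as a thin bar, and the range over 23 alternative fits as a thick grey bar. Id3 has the highest value (1.12), the intervals of Smad1, Smad9 and Bmpr2 reach across 0, and those of Id1 and Id4 lie above 0 although their adjusted p values are 0.0631 and 0.193.

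Whether genes of one family changed unequally was tested with the log2 ratio of each of the 12 pairs within a family, a measure that does not depend on how libraries are scaled (two-sided exact permutation tests, Benjamini-Hochberg adjustment over the 12 pairs). The ratio of *Smad1* to *Smad5* went from -0.40 ± 0.175 to -0.91 ± 0.150 on the log2 scale (SD, n = 6 each), a difference of -0.50 without overlap between the groups (exact p = 0.002165, adjusted p = 0.0104). *Bmpr1a* against *Bmpr2* went from -2.63 ± 0.0824 to -2.32 ± 0.182, also without overlap (difference 0.31, exact p = 0.002165, adjusted p = 0.0104). For *Bmpr1b* against *Bmpr2* the difference was 0.68 (exact p = 0.00433, adjusted p = 0.0104).

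Within the Id family, *Id3* gained on *Id4* by 0.94 and on *Id2* by 0.77 on the log2 scale (exact p = 0.00433 and adjusted p = 0.0104 for each), with overlap between the groups in both ratios. The pairs of *Id1* with *Id2*, *Id3* and *Id4* gave differences of 0.30, -0.47 and 0.48, and none passed (exact permutation tests, adjusted p = 0.21, 0.118 and 0.101). *Id2* against *Id4* differed by 0.18 (exact test, adjusted p = 0.2). The 2 type I receptors among the 10 genes were not separated from each other either: *Bmpr1a* against *Bmpr1b* differed by -0.37 (exact p = 0.0281, adjusted p = 0.0563). *Smad5* against *Smad9* differed by 0.66 (exact p = 0.0476, adjusted p = 0.0816) and *Smad1* against *Smad9* by 0.16 (exact test, adjusted p = 0.502). When single libraries were left out, one after another, the 5 ratios that passed kept their sign and an unadjusted exact p of at most 0.00866.

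**Figure D3:**
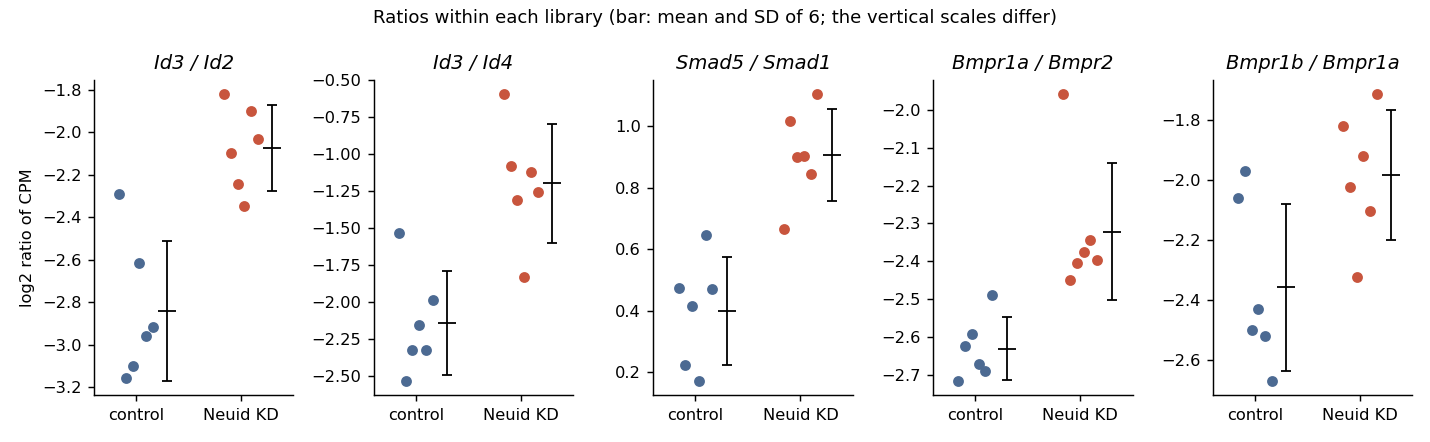
Log2 ratio of the CPM of a pair of genes (vertical axes, which differ between panels) in each control and Neuid KD library, with a bar for the mean and SD of 6. The groups are apart for Smad5 against Smad1 and Bmpr1a against Bmpr2, and they overlap for the other 3 pairs shown.

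The background of reads outside expressed genes differed between libraries and spanned a like range in both groups. Chemosensory receptor genes, which these cells are not known to express, summed to 26.0 to 653 CPM in control and 26.9 to 604 CPM in *Neuid* KD. In the 7 libraries with at least 100 CPM on them (4 control, 3 *Neuid* KD) the log2 fold changes of *Id2*, *Id3*, *Smad5*, *Bmpr1a* and *Bmpr1b* were 0.37, 1.20, 0.62, 0.39 and 0.78. In the 5 other libraries (2 control, 3 *Neuid* KD) they were 0.30, 1.11, 0.51, 0.30 and 0.74, and all 5 genes passed the test in both sets. *Id1* was at 0.46 in the first set (adjusted p = 0.79) and at 0.81 in the second (adjusted p = 0.0478).

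The summed levels of astrocyte and precursor markers given above moved with the 5 genes that rose, as those sums did not overlap between the groups either. Only 3 of the 7 precursor markers rose, *Olig1* and *Olig2* among them, and 4 were not called. The part of astrocytes and precursors in the changes of *Id2*, *Id3*, *Smad5*, *Bmpr1a* and *Bmpr1b* was not tested. Of 7 markers of dividing cells, 0 were called (edgeR), 1 was higher at an unadjusted p under 0.05, and DESeq2 called 0. Their sums were 141 to 156 CPM in control and 131 to 157 CPM in *Neuid* KD.

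The other genes of the pathway were 59 genes in 5 lists, of which 48 were tested. Of these, 5 rose and 2 fell (6.31% and 2.42% of all tested genes did), and their median log2 fold change was -0.01. The numbers depended on the fit: from 2 to 6 were higher and from 1 to 5 lower over the alternatives. Among 13 ligand genes, 5 had enough reads to be tested and 10 averaged under 1 CPM. *Bmp7*, a ligand of these receptors, was the 1 that rose, from 3.54 ± 0.174 to 5.46 ± 0.786 CPM (SD, n = 6 each; log2 fold change 0.62, adjusted p = 0.00197), without overlap. It passed in 22 of 23 alternative fits, with an adjusted p of 0.125 in the 5 libraries of low background. *Bmp3*, which is known to oppose other BMPs, was at 6.25 ± 0.861 and 4.78 ± 0.906 CPM (log2 fold change -0.40, adjusted p = 0.0787). *Bmp4* was not tested, at 0.327 ± 0.28 and 0.273 ± 0.262 CPM.

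Of the 8 tested receptors and co-receptors outside the 10 genes, 1 rose. This was *Rgma*, a membrane co-receptor of BMPs, at 75.2 ± 4.75 and 86.7 ± 5.70 CPM (log2 fold change 0.21, adjusted p = 0.0253), and it passed in 11 of 23 alternative fits. The type I receptor gene *Acvr1* (log2 fold change -0.03, 95% interval -0.15 to 0.09) and the type II receptor gene *Acvr2a* (-0.04, interval -0.18 to 0.11) did not pass. *Neo1*, the receptor of Rgma, was at 0.22 (adjusted p = 0.0959).

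Among 16 tested antagonists and modulators outside the cell, 1 rose and 2 fell. *Chrdl1*, a secreted BMP antagonist known from astrocytes, fell from 7.16 ± 1.10 to 3.48 ± 0.602 CPM without overlap (log2 fold change -1.06, SE 0.132, adjusted p = 2.7e-05). Its direction was opposite to that of the 11 astrocyte markers, and which cells held its RNA in these cultures was not tested. *Bmp1*, a protease that releases BMPs from chordin and is not itself a BMP, rose by 0.33 (adjusted p = 0.0014) and passed in 21 of 23 alternative fits, with adjusted p = 0.116 under GC and length offsets and 0.072 in the 5 libraries of low background. The abundant modulators *Fstl1*, *Nbl1* and *Twsg1* had log2 fold changes of -0.15, 0.00 and 0.00 and did not pass.

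Of 12 further Smads and brakes inside the cell, 0 were called by edgeR, 2 were higher and 0 lower at an unadjusted p under 0.05, and DESeq2 called 0. *Smad4*, the common partner of *Smad1*, *Smad5* and *Smad9*, was at 39.9 ± 1.67 and 44.1 ± 4.40 CPM (log2 fold change 0.15, 95% interval 0.03 to 0.27, adjusted p = 0.183). The inhibitory *Smad7* had a log2 fold change of -0.03 (interval -0.25 to 0.19), and *Smad6*, at 0.675 ± 0.32 and 0.467 ± 0.418 CPM, had one of -0.57 with a wide interval (-1.77 to 0.63). Among 12 tested BMP targets other than Id genes, 2 rose. These were *Hey1*, a bHLH repressor (log2 fold change 0.41, adjusted p = 0.00058, no overlap), and *Msx1*, a homeobox gene (0.64, adjusted p = 0.032), which passed in 10 of 23 alternative fits.

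**Figure D4:**
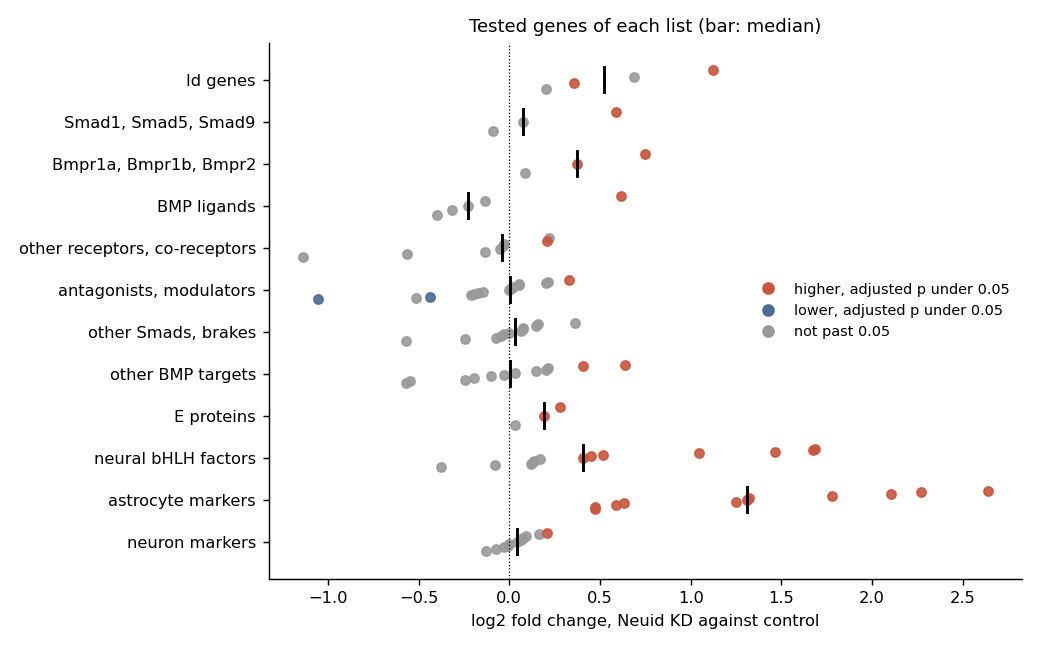
Log2 fold change between Neuid KD and control (horizontal axis) of the tested genes of each list, coloured by the test over all genes, with a bar at the list's median. Most genes of the BMP lists beside the 10 genes lie around 0, and the 11 astrocyte markers lie to the right, at 0.47 to 2.64.

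Id proteins act through the E proteins, of which 2 of 3 rose, as 6.31% of all tested genes did. *Tcf3* rose from 36.1 ± 2.49 to 43.9 ± 2.63 CPM (SD, n = 6 each; log2 fold change 0.28, adjusted p = 0.00265). It passed in 21 of 23 alternative fits, and in the libraries under 100 CPM of background its log2 fold change was 0.10 (adjusted p = 0.419) where it was 0.39 in the others. *Tcf12* was at 0.19 (adjusted p = 0.0381), which passed in 9 of 23 alternative fits. *Tcf4*, the most abundant of the 3 in CPM (959 ± 54.4 and 981 ± 82.1), was at 0.03 (95% interval -0.08 to 0.15).

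Of 13 tested neural bHLH genes, 7 rose and 0 fell at an adjusted p under 0.05, *Hey1* among them. Among all tested genes, 6.31% rose and 2.42% fell. At an unadjusted p under 0.05, 10 of the 13 were higher and 0 lower, and DESeq2 called 7 higher and 0 lower. The 7 that rose included *Olig1* and *Olig2*, which mark the oligodendrocyte lineage and also stand in the precursor list (log2 fold changes 1.47 and 1.67). *Hes5*, a Notch target that keeps progenitors undifferentiated, rose from 1.86 ± 0.426 to 6.03 ± 1.25 CPM (1.69, adjusted p = 4.4e-06). The neuronal factors *Neurod1*, *Neurod2* and *Neurod6* were at 0.17, 0.12 and 0.13 and did not pass (adjusted p between 0.0716 and 0.177). In the TGF-beta and activin branch, which uses Smad2 and Smad3, 1 of 11 genes rose (*Tgfb2*, 0.38, adjusted p = 0.00399) and 1 fell (*Smad3*, -0.32, adjusted p = 0.0156). Beside these counts stand the 6.31% and 2.42% of all tested genes. *Tgfb2* passed in 22 of 23 alternative fits, all but the libraries with at least 100 CPM of background (adjusted p = 0.085). *Smad3* passed in 19, and was lost in those same libraries (adjusted p = 0.385), with no filter (0.0672), without control replicate 5 (0.0508) and without *Neuid* KD replicate 2 (0.0527). *Smad2* was at 0.00 (interval -0.12 to 0.11).

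The tested genes most like each Id gene over the 12 libraries, by Pearson r of log2 CPM, are given as a description, since the points share libraries and group. For *Id3* they were *Dock10* (r = 0.975), *Smo* (0.965) and *Palld* (0.963), with log2 fold changes of 0.68, 0.67 and 0.42. For *Id2* they were *Hdgf* (0.949), *D8Ertd738e* (0.946) and *Mettl9* (0.941). *Id4* was most like *Specc1l* (0.935), *Ier3ip1* and *Caskin1*, and *Id1* most like *Ythdf2* (0.879), *Tmem234* and *Btd*. No gene stood in more than 1 of these groups.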

How the data were processed

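The study sequenced stranded total RNA libraries (50 bp single reads), trimmed them with bcl2fastq, aligned them to mm10 (GRCm38) with STAR and counted reads per gene with featureCounts. The authors deposited 1 table of raw counts per gene and library, without normalization. The strand setting and annotation release of the counting are not given in the sources used here.

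Symbols, positions and exon lengths came from GENCODE on GRCm38 (55230 genes with a symbol). Counts were fitted with edgeR 4.0.16 (TMM, filterByExpr, group as the only term, glmQLFTest, Benjamini-Hochberg over 19578 genes, call at an adjusted p under 0.05). CPM used TMM-scaled library sizes. SE is the absolute log2 fold change over the square root of F, and a 95% interval is 1.96 SE on either side. Single values were tested with two-sided exact permutations. DESeq2 1.42.0 and the other alternatives are in the closing section. The fit was tested on simulated data. Counting error is relatively larger for genes with few reads.

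The 10 genes and all gene lists were chosen with earlier results of these data known, and so was the measure of background. Named genes were the 10 genes, the called genes of each list with up to 4 further abundant ones, and the 3 genes most correlated with each Id gene. The motif list was shortened after the windows had been searched. Some called genes of the lists are counted and not reported here by name.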

Additional observations from a re-analysis of the deposited data

Results flagged for a closer look

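Of 56 groups of 6 libraries (28 genes in each group), 5 held a library that stood apart from the rest by more than Dixon's critical value for groups of this size, and chance alone gives about 2.8. *Neuid* KD replicate 1 was lowest for *Bmpr2* (248 CPM, where the others were at 345 to 375 CPM) and for *Tgfb2* (29.7 CPM, others 34.9 to 37.1 CPM), and it was also the shallowest library. For *Bmpr1b*, control replicate 2 was highest (13.8 CPM, others 9.00 to 10.2 CPM). *Smad9* was lowest in *Neuid* KD replicate 3 (1.78 CPM, others 2.87 to 3.50 CPM). *Hes6*, a neural bHLH gene, was lowest in *Neuid* KD replicate 6 (25.4 CPM, others 30.2 to 33.02 CPM).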

How the results depend on the processing

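*Id2*, *Id3*, *Smad5*, *Bmpr1a* and *Bmpr1b* were called higher in all 23 alternative fits, and *Id4*, *Smad1*, *Smad9* and *Bmpr2* in none. These 23 were 3 other normalizations or tools (RLE, upper-quartile factors, DESeq2), no filter on low counts, 1 or 2 RUVs factors, the background as a covariate, the libraries split by background at 100 CPM, GC and length offsets, a replicate block, and each library left out. A fold-change threshold of 0.5 left 3 of the 5 genes. With each library left out the number of the 10 genes called higher was 5 to 6, and their log2 fold changes were 1.02 to 1.23 (*Id3*), 0.30 to 0.38 (*Id2*), 0.51 to 0.64 (*Smad5*), 0.32 to 0.41 (*Bmpr1a*) and 0.66 to 0.84 (*Bmpr1b*). Those of *Id1* were 0.52 to 0.78, and it was called only without control replicate 1 (0.78, edgeR, adjusted p = 0.0389). *Id1* was also called with DESeq2 (log2 fold change 0.68), 1 RUVs factor (0.66), 2 RUVs factors (0.65), the background covariate (0.66) and in the libraries under 100 CPM (0.81). *Smad9* changed sign in the libraries under 100 CPM (0.15) and without *Neuid* KD replicate 3 (0.017; range -0.19 to 0.017 with each library left out), and *Bmpr2* with GC and length offsets (-0.014). The cause of these changes was not tested.

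For the 48 other pathway genes, the number called higher (5) was 3 with no filter, with GC and length offsets and in the libraries with at least 100 CPM, 2 in those under 100 CPM and with the fold-change threshold, and 3 to 5 with each library left out. It was 3 without control replicate 1 or 3 and without *Neuid* KD replicate 2, 4 or 6. The number called lower (2) was 5 with upper-quartile factors, 1 or 2 RUVs factors or the background covariate, 4 in the libraries under 100 CPM, 1 with no filter, with GC and length offsets and with the fold-change threshold, and 1 to 3 with each library left out. It was 1 without control replicate 2, 3, 4 or 6 and without *Neuid* KD replicate 3, 4, 5 or 6. Of the calls beside the 10 genes, 64 of 391 results under alternatives lost significance and none changed sign, *Rgma*, *Msx1* and *Tcf12* among them. Over all tested genes, the number higher (1235) was 711 with no filter, 651 in the libraries with at least 100 CPM, 477 with the fold-change threshold and 822 to 1208 with each library left out, lowest without *Neuid* KD replicate 2. The number lower (473) was 1259 with upper-quartile factors, 229 with no filter, 982 and 935 with 1 and 2 RUVs factors, 987 with the covariate, 205 and 799 in the libraries with at least and under 100 CPM, 155 with the threshold and 355 to 780 with each library left out, highest without *Neuid* KD replicate 1. For libraries of the same replicate number, the correlation of deviations from the group means was between -0.64 and 0.77, and negative for 3 of 6 numbers. For numbers 1 (0.77) and 3 (0.75) the control library was most like the *Neuid* KD library of its own number. Those libraries also had like background (653 and 604 CPM, 26.0 and 26.9 CPM). The negative numbers 2, 4 and 5 had libraries on opposite sides of 100 CPM. This check therefore cannot tell a pairing from background, and the main fit used none. With the replicate block, 1299 genes were higher and 542 lower, and 5 of the 10 genes were called. Counting error is relatively largest for *Id1* (32 to 136 reads per library), *Smad9* (38 to 100) and *Id3* (64 to 178).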
